A study of Ovis aries with 4 samples.

Results

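The genes described here are 9 matrix proteases and inhibitors that carry a symbol in the deposited feature lists of single-cell libraries from the lactating sheep mammary gland. They were taken by name, 9 of 20150 genes in all, of which 774 had a symbol. Of the 9, 4 are matrix metalloproteinases (MMP2, MMP7, MMP14 and MMP19), 3 are tissue inhibitors of metalloproteinases (TIMP1, TIMP2 and TIMP3), PLAU encodes the urokinase-type plasminogen activator and CTSB the lysosomal protease cathepsin B.

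Metalloproteinases are secreted or membrane-bound enzymes that cleave collagens and other matrix proteins, and most are made as inactive proenzymes. TIMPs bind their active sites, and TIMP2 also takes part in the activation of pro-MMP2 by the membrane-bound MMP14. Urokinase turns plasminogen into plasmin, which can in turn activate several metalloproteinases, and in the mammary gland both systems are known for their part in branching and in the remodelling that follows lactation.

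The study sampled 4 lactating ewes, 1 droplet library each, with 2 libraries titled LH and 2 titled LL. The series' text names peak and late lactation as its stages. LL is late lactation there, and LH is not spelled out. The labels give no breed or age, and every ewe was lactating, so no non-lactating gland served as a reference.

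Barcodes numbered 5955 to 12733 per library, with 28015149 to 65339993 UMIs (unique molecular identifiers, counted transcript molecules) and medians of 2693 to 3294 UMIs per barcode. Any pair of libraries shared 15 to 39 barcode sequences. Cells were gated by marker genes that are not among the 9: DCN (fibroblast-like), EDNRA with IGFBP7 (pericyte-, smooth muscle- or myoepithelium-like), EPCAM or CLDN4 (luminal epithelium-like), RELN (lymphatic endothelium-like), C1QA (macrophage-like) and CD3E (T cell-like). In the DCN gate 4 of 4 named markers were highest, in EDNRA/IGFBP7 5 of 6, in EPCAM/CLDN4 7 of 7, in RELN 3 of 3, in C1QA 3 of 3 and in CD3E 4 of 4. These counts include the gating genes, which are raised in their own gates by construction. Only markers with a symbol were counted. For RELN these were 3 of 6 listed (RELN, F8 and IGFBP5), and for C1QA 3 of 5 (C1QA, MRC1 and CD14). The blood endothelial genes SELP, SELE and KDR were also highest in the RELN gate, with a summed level of 228, 41.6, 969 and 273 UMIs per 1000000 (LH replicates 1 and 2, then LL). In the same order, the RELN gate held 42, 68, 457 and 197 cells. The 6 markers of the EDNRA/IGFBP7 gate summed to 525, 3286, 562 and 379 in the RELN gate. In their own gate they summed to 3374, 5617, 3593 and 3625, so the RELN gate of LH replicate 2 was mixed. A gate of IDO1 with IGFBP6 held only 18 cells (8, 3, 6 and 1), with IDO1 found in 133 barcodes of all libraries, and was described without a test. The DCN gate was filled by 229 and 35 cells of the LH ewes, against 2044 and 1199 of the LL ewes, so every fibroblast value of LH replicate 2 rests on 35 cells. In LH replicate 1, 42.3% of the cells were in the CD3E gate, against 7.14% to 8.46% in the other libraries.

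Among the 6 tested gates, the proteases were highest in different ones. MMP2 was highest in fibroblast-like cells, MMP7 in luminal cells, PLAU and CTSB in macrophage-like cells, MMP14 in fibroblast-like and then macrophage-like cells, and MMP19 in both of these. Among the inhibitors, TIMP2 followed the fibroblast- and macrophage-like cells, TIMP3 was high in all 3 stromal and vascular gates, and TIMP1 was found in every gate. Levels are CPM, the UMIs of a gene scaled to 1000000 UMIs of the gate, without a correction for gene length. Where 4 values are given, they are those of the LH pair of libraries (replicate 1, then 2) and then of the LL pair.

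**Figure D1:**
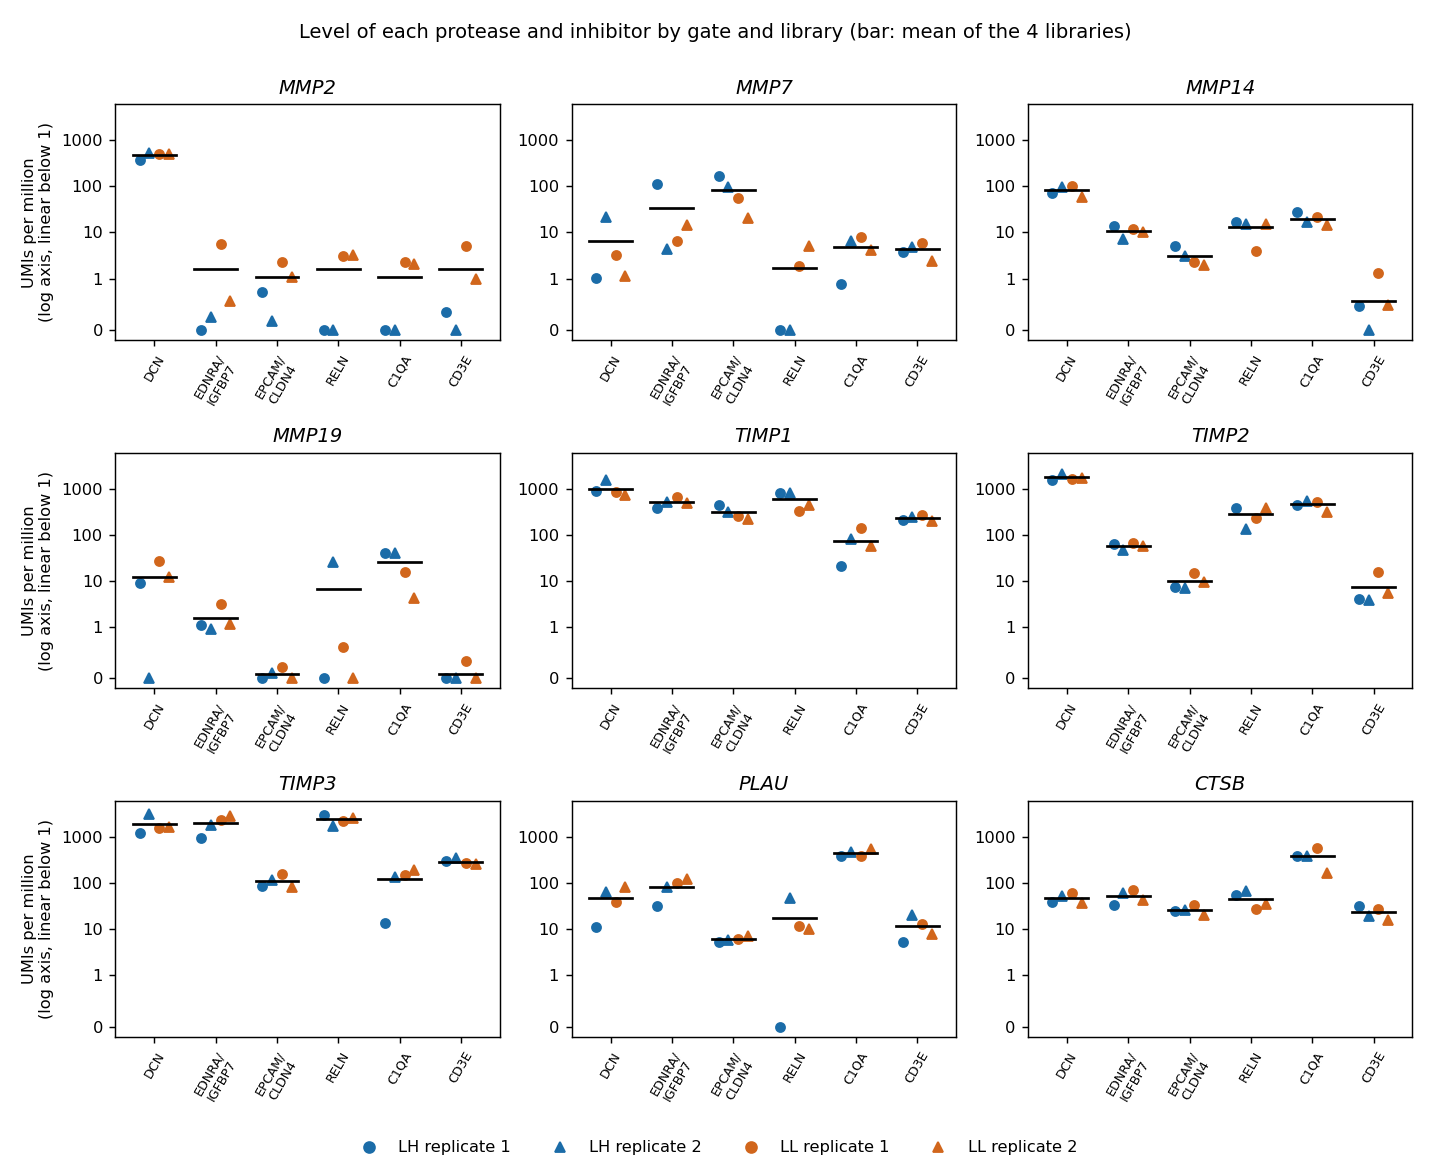
Level of each of the 9 genes (CPM, log axis that is linear below 1) in 6 gates, with a point for each of the 4 libraries and a bar at their mean. MMP2 lies between 372 and 528 in the DCN gate and under 6 in every other gate shown, whereas TIMP3 is near or above 1000 in the DCN, EDNRA/IGFBP7 and RELN gates.

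MMP2, the gelatinase that cleaves type IV collagen and denatured collagens, was at 372 and 528 CPM in the DCN gates of LH and at 506 and 498 in those of LL. No other tested gate reached more than 5.62, so the DCN gate did not overlap any of them, and its mean was 476 ± 70.6 (SD, n = 4 libraries). Against the mean of the other gates the log2 difference was 8.45 ± 0.32 (SE; edgeR quasi-likelihood test with the library as a block, Benjamini-Hochberg adjusted p = 4e-14). At least 1 MMP2 UMI was found in 60.7%, 40.0%, 66.1% and 60.4% of the DCN-gated cells. The same shares of CD3E-gated cells were 0.127%, 0 of 637 cells (which allows up to 0.471%, or 3 cells), 1.47% and 0.248%. Median depths were 1997 to 3651 UMIs per cell in the DCN gates and 2375 to 3363 in the CD3E gates. With each cell thinned to 1000 UMIs, 29.2% to 34.8% of the DCN-gated cells had an MMP2 UMI.

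MMP14, the membrane-anchored collagenase that activates pro-MMP2, was at 71.5 and 95.1 in the DCN gates of LH and 100.6 and 59.8 in those of LL. Macrophage-like cells followed with 27.7, 16.4, 21.2 and 14.7, below every DCN value. The DCN gate exceeded the mean of the others by a log2 difference of 3.73 ± 0.24 (edgeR, adjusted p = 8.94e-11), and the C1QA gate by 1.68 ± 0.29 (adjusted p = 5.96e-05). RELN and EDNRA/IGFBP7 cells came next with means of 12.9 ± 6.03 and 10.7 ± 2.69, whose ranges overlapped each other. Luminal cells had 3.10 ± 1.42, and T cell-like cells 0.570 ± 0.552, the lowest level.

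MMP19, a metalloproteinase of stromal and myeloid cells, had few UMIs. Its level in the C1QA gate was 41.1 for both LH ewes against 15.6 and 4.19 for those of LL, from 46, 70, 28 and 2 UMIs. The DCN gate gave 9.07 and 0 for LH against 26.8 and 12.0 for LL, from 9, 0, 199 and 42 UMIs. The C1QA value exceeded the DCN value in both LH libraries and lay below it in both LL libraries, so no order of these gates holds over the ewes. Both gates exceeded the mean of the others, by log2 differences of 4.93 ± 0.54 (C1QA, adjusted p = 1.9e-07) and 4.09 ± 0.57 (DCN, adjusted p = 5.5e-06; edgeR).

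MMP7, the matrilysin of glandular epithelium, was at 165 and 98.2 in the EPCAM/CLDN4 gates of LH and 55.0 and 20.6 in those of LL. The luminal level was the highest of the tested gates in each library, although the luminal values of the other 3 libraries lay below the EDNRA/IGFBP7 value of 111 in LH replicate 1. The log2 difference of the luminal gate from the mean of the others was 3.95 ± 0.45 (edgeR, adjusted p = 3.01e-07). Outside the tested gates, cells in more than 1 gate had 312, 143, 85.2 and 23.7, above the luminal level in each library. Ungated cells with CCN2 and IGFBP6 (8, 40, 146 and 46 cells) had 301, 49.2, 469 and 282, above the luminal level except in LH replicate 2. In the EDNRA/IGFBP7 gate the levels were 111 and 4.34 for LH against 6.65 and 14.8 for LL, a log2 difference of 1.67 ± 0.58 (adjusted p = 0.0249). That call rested on LH replicate 1: without it the difference was 0.27 with an adjusted p of 0.720. It was also lost without LL replicate 2 (1.64, adjusted p = 0.10). In the EDNRA/IGFBP7 gate of LH replicate 1 the luminal secretory gene SPP1 stood at 12.6% of its luminal level, against 1.24% to 3.16% in the other libraries, and the whey protein gene PAEP at 0.158%, against 1.34% to 3.75%. Their part in the MMP7 value was not tested.

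Few luminal cells held most of the MMP7 UMIs. At least 1 UMI was found in 41.6% and 28.2% of luminal cells in LH and in 12.2% and 9.56% in LL, against 0.248% to 1.17% in the CD3E gate. Median depths were 10211 to 14456 UMIs per luminal cell and 2375 to 3363 in the CD3E gate. After thinning to 1000 UMIs the luminal shares were 9.56%, 6.13%, 2.82% and 1.29%, and those of the CD3E gate 0.129% to 0.307%. The tenth of luminal cells with the most MMP7 held 68.8% and 84.0% of its luminal UMIs in LH and 97.4% and 100% in LL, and the cell with the most had 138 UMIs. In LL only 12.2% and 9.56% of luminal cells had any MMP7 UMI. This fixes the 100% and holds the 97.4% high by construction, so the stage difference in these shares is not separate from that in detection.

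A further set of MMP7-rich cells lay outside all gates. With 3 or more MMP7 UMIs, 14, 27, 88 and 73 ungated cells were found, beside 71, 206, 42 and 66 luminal cells. Median depths of the ungated ones were 7370, 3945, 4816 and 4794 UMIs, against 2656.5, 2051, 2472 and 1959 with no MMP7. For the luminal ones they were 20186, 14804, 15905 and 27782.5, against 12993, 9494, 11291.5 and 9825. The sets thus differed in depth as well as in MMP7, and the part of depth was not tested. The ungated cells with 3 or more carried IGFBP6 at 1722, 2642, 843 and 495 CPM, against 84.4, 524, 340 and 431 with no MMP7. The LL replicate 2 values were close. ATP1B1 was at 359 to 1329 (53.0 to 123 with no MMP7) and EPCAM at 44.5 to 102 (8.07 to 34.8). The luminal gene SPP1 was at 773, 2281, 285 and 90.6 in them (102, 671, 41.4 and 154 with no MMP7). In LH replicate 2 the luminal genes LTF (1131 against 236) and PAEP (612 against 86.4) were also higher in them, and in both LL libraries they were lower. The luminal gate gene CLDN4 went both ways, at 0, 18.5, 4.05 and 2.45 in the MMP7-rich ungated cells (0.861, 8.03, 1.93 and 6.57 with no MMP7). CAV1 (362 to 603 against 65.9 to 325) and IGFBP5 (263 to 640 against 42.4 to 282) were higher in the MMP7-rich ungated cells of each library. The cells were chosen by their MMP7 counts and the genes named after their values were seen, so these levels are a description. The 18 cells with IDO1 and IGFBP6 held 45 MMP7 UMIs in 11 cells, a pooled level of 387 CPM. By library these were 24, 0, 9 and 12 UMIs among gates of 8, 3, 6 and 1 cells, a level above that of the luminal gate in 3 of 4 libraries.

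PLAU was at 386 and 466 CPM in the C1QA gates of LH and 380 and 543 in those of LL, above every value of the other tested gates. EDNRA/IGFBP7 cells followed with 31.4, 83.4, 100.7 and 121, and the DCN gate with 11.1, 63.4, 38.5 and 81.0, lower than EDNRA/IGFBP7 in each library although the ranges overlapped. The C1QA gate exceeded the mean of the others by a log2 difference of 4.61 ± 0.23 (adjusted p = 7.76e-13), and EDNRA/IGFBP7 by 1.44 ± 0.26 (adjusted p = 0.000134; edgeR). A PLAU UMI was found in 45.7%, 44.1%, 51.1% and 56.3% of macrophage-like cells, at median depths of 2072 to 5350 UMIs, and in 1.61% to 3.77% of CD3E-gated cells.

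CTSB, a cysteine protease that works in lysosomes and can be secreted, was at 390 and 383 in the C1QA gates of LH and 582 and 166 in those of LL. LL replicate 2 was the lowest and LL replicate 1 the highest, so the LL values enclosed those of LH. Every other tested gate stayed at or below 70.1, and the means of EDNRA/IGFBP7 (51.9 ± 16.7), DCN (47.2 ± 11.3) and RELN cells (46.4 ± 18.6) did not differ beyond their spread. The C1QA gate exceeded the mean of the others by a log2 difference of 3.42 ± 0.18 (edgeR, adjusted p = 1.92e-12). PLAU and CTSB UMIs were found together in 2.47% to 9.93% of macrophage-like cells thinned to 1000 UMIs, where independent detection would give 3.73% to 5.97%. The observed share was the higher in 3 of 4 libraries and the lower in LH replicate 1.

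TIMP2 was at 1578 and 2114 in the DCN gates of LH and 1594 and 1725 in those of LL, with no overlap with any other tested gate. Macrophage-like cells had 454, 531, 519 and 315, and RELN cells 379, 135, 233 and 379, ranges that overlapped each other. EDNRA/IGFBP7 cells followed at 58.0 ± 9.06, and luminal and T cell-like cells at 9.72 ± 3.74 and 7.19 ± 5.64, which did not differ beyond their spread. The log2 differences from the mean of the other gates were 4.76 ± 0.21 for DCN (adjusted p = 2.56e-13), 2.79 ± 0.22 for C1QA (adjusted p = 1.26e-09) and 1.69 ± 0.24 for RELN (adjusted p = 1.91e-05; edgeR). The RELN call was lost when cells in several gates were counted in each (0.27, adjusted p = 0.641).

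TIMP3, the inhibitor that stays bound to the matrix, was at 3013 and 1778 in the RELN gates of LH and 2229 and 2637 in those of LL. EDNRA/IGFBP7 cells had 961, 1875, 2369 and 2908, and DCN cells 1236, 3107, 1587 and 1618. These 3 gates overlapped, and all 3 lay above every value of the T cell-like (295 ± 36.2), macrophage-like (121 ± 75.9) and luminal cells (111 ± 32.8). Each of the 3 exceeded the mean of the other gates, by log2 differences of 2.44 ± 0.27 (RELN), 2.08 ± 0.27 (EDNRA/IGFBP7) and 1.77 ± 0.28 (DCN), with edgeR adjusted p of 6.77e-07, 3.87e-06 and 2.64e-05. Of the RELN-gated cells 83.8% to 100% had a TIMP3 UMI, against 32.6% to 41.9% of the CD3E-gated cells, at median depths of 2347 to 4294 and 2375 to 3363 UMIs.

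TIMP1, the soluble inhibitor induced by many cytokines, was at 899 and 1554 in the DCN gates of LH and 853 and 727 in those of LL. RELN cells had 818, 806, 336 and 452, and EDNRA/IGFBP7 cells 380, 504, 664 and 480. Luminal cells had 441, 305, 257 and 217 and T cell-like cells 209, 240, 274 and 194, with overlapping ranges. The lowest level was in macrophage-like cells, at 21.4, 81.6, 140 and 56.6. Only the DCN gate was above RELN in each library, and its log2 difference from the mean of the others was 1.58 ± 0.24 (edgeR, adjusted p = 2.08e-05). The RELN call (0.80 ± 0.26, adjusted p = 0.0265) was lost in 5 of the other settings tried, among them without LH replicate 1 (adjusted p = 0.0933), LH replicate 2 (0.159) or LL replicate 2 (0.158).

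In the count over all genes, 6 of 9 members were higher in the DCN gate than in the mean of the others and 0 lower, where 24.7% of 11480 genes tested were called higher and 24.2% lower (edgeR; 7 members at an unadjusted p under 0.05). The seventh was MMP7, with a log2 difference of -1.94 and an adjusted p of 0.0550, called lower in 6 of 13 other settings, DESeq2 among them. In C1QA 5 were higher and 3 lower (24.3% and 23.9% of all genes), in EDNRA/IGFBP7 3 and 1 (22.7% and 19.8%) and in RELN 3 and 1 (16.6% and 11.6%). Luminal cells had 1 higher, MMP7, and 7 lower (31.3% and 26.3%). T cell-like cells had 0 higher and 6 lower (29.3% and 31.1%). The median log2 difference of the members was 1.77 in DCN and 1.68 in C1QA, against -2.11 in the luminal and -1.41 in the CD3E gate. Over all genes tested the medians were -0.04, -0.10, 0.03 and -0.05 in these gates. MMP2 in the C1QA gate, counted among the 3 lower, had 0 UMIs there in both LH libraries and 4 and 1 in LL.

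The other genes of the pathway were mostly not readable, since 8 of 74 listed genes had a symbol and 5 of these could be tested between gates. PLAUR, the urokinase receptor, was higher in the C1QA gate by a log2 difference of 7.74 ± 0.22 (edgeR, adjusted p = 7.38e-17), with 786, 503, 320 and 956 CPM. In all, 4 of the 5 tested genes were higher in C1QA, PLAUR, SERPINB1 and FURIN among them, and 0 lower. In DCN 2 were higher, SERPINF1 among them, and 0 lower, and in the luminal gate 1 was higher (SERPINB1) and 1 lower (SERPINF1). In EDNRA/IGFBP7 0 were higher and 4 lower, in CD3E 0 and 3, and in RELN 0 and 0 (2 at an unadjusted p under 0.05). Over all genes 24.3% were called higher in C1QA, 24.7% in DCN and 31.3% in the luminal gate. Those called lower were 26.3% in the luminal gate, 19.8% in EDNRA/IGFBP7 and 31.1% in CD3E. With 5 genes tested, the counts are a description.

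A droplet library also holds free RNA. The levels of MMP2, MMP14, TIMP2 and TIMP1 outside the DCN gate were therefore set beside those of 2 fibroblast genes, SFRP2 and SERPINF1. MMP2 outside the DCN gate stood at 0 to 1.11% of its DCN level, SERPINF1 at 0 to 0.70% and SFRP2 at 0 to 5.50%. The highest SFRP2 value came from 5 UMIs (C1QA gate, LL replicate 2). The EDNRA/IGFBP7 gate of LL replicate 1 had 5.01% from 24 UMIs. The SFRP2 level of the DCN gate in LH replicate 2 rests on 8 UMIs. TIMP2 in macrophage-like cells stood at 28.7%, 25.1%, 32.5% and 18.2% of its DCN level and MMP14 at 38.7%, 17.3%, 21.0% and 24.5%, above both fibroblast genes in every library. TIMP2 in T cell-like cells stood at 0.182% to 0.978%, from 34, 7, 47 and 11 UMIs. There SFRP2 stood at 0.180%, 1.30%, 1.08% and 0%, and SERPINF1 at 0.113%, 0.028%, 0.499% and 0.140%. TIMP2 lay above both fibroblast genes in LH replicate 1 and LL replicate 2, and between them in LH replicate 2 and LL replicate 1. TIMP1 in T cell-like cells was at 15.5% to 32.2% of its DCN level. MRC1, a gene highest in the C1QA gate, stood at 8.83% to 22.4% of its C1QA level in the RELN gate, where TIMP2 was also found. It stood at most at 0.819% in the remaining gates. The part of macrophage RNA in the RELN-gate values of MRC1 and TIMP2 was not tested.

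**Figure D2:**
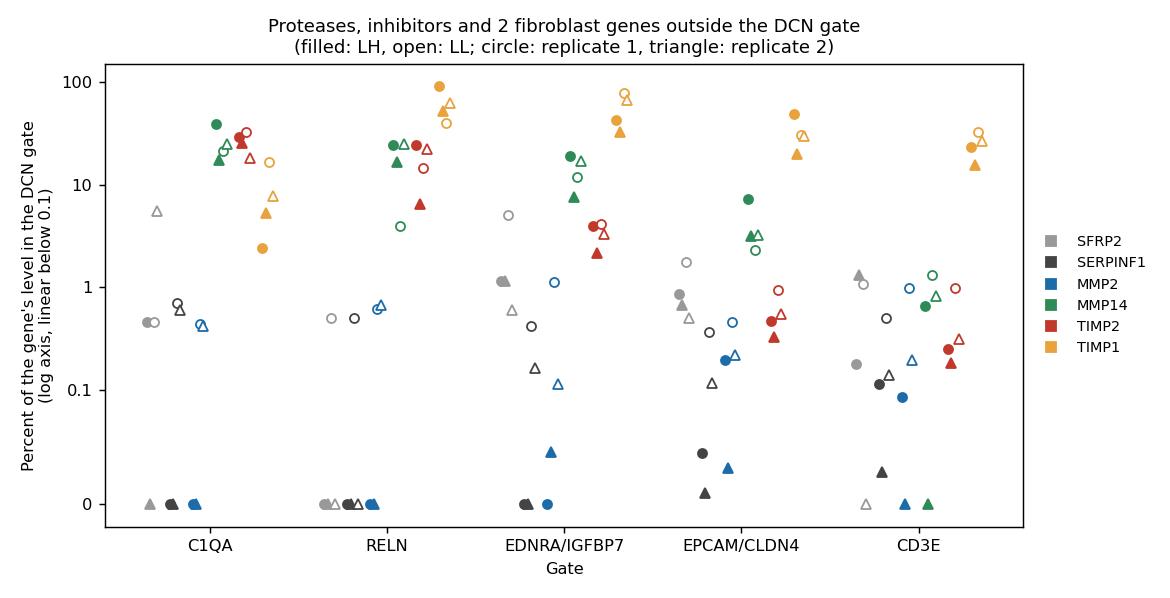
Level of MMP2, MMP14, TIMP2, TIMP1 and the fibroblast genes SFRP2 and SERPINF1 in 5 gates, as a percent of the same gene's level in the DCN gate of the same library (log axis, linear below 0.1). MMP2 stays at or under 1.11% like SERPINF1, whereas TIMP2 and MMP14 lie between 17.3% and 38.7% in the C1QA gate.

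The share of a gene's UMIs in a gate counts its cells and their RNA together. The DCN gate held 82.9% and 75.8% of all MMP2 UMIs in LH and 86.2% and 85.8% in LL. For MMP7 the luminal gate held 45.1%, 71.4%, 39.0% and 53.5%, and cells in more than 1 gate 40.2%, 20.7%, 16.1% and 6.29%. Ungated cells with CCN2 and IGFBP6 held 18.1% of the MMP7 UMIs of LL replicate 1 and 0.169% to 4.31% in the other libraries. MMP19 UMIs lay in the C1QA gate in LH (75.4% and 60.3%) and in the DCN gate in LL (65.2% and 68.9%). TIMP2 UMIs were 55.0%, 72.1% and 71.9% from the DCN gate, except in LH replicate 2, where its 35 cells gave 9.74% and the C1QA gate 44.1%. TIMP1 had 28.9%, 49.0%, 14.7% and 46.5% of its UMIs in luminal cells, which hold 21.0% to 61.8% of all UMIs. The largest share of TIMP3 UMIs in a gate was 29.5%, in EDNRA/IGFBP7 cells of LH replicate 2, and 26.3% of those of LH replicate 1 were in the CD3E gate. Of the PLAU UMIs 60.5%, 33.2%, 20.8% and 12.3% were in macrophage-like cells. Ungated cells with IGFBP7 but no EDNRA held 4.62%, 26.1%, 26.1% and 17.8%, above the macrophage-like share in both LL libraries. In LL replicate 2 the DCN gate (13.5%) and the luminal gate (12.8%) also held more than the C1QA gate. For CTSB the luminal share (10.8%, 33.8%, 12.3% and 52.1%) exceeded the C1QA share in LH replicate 2 and LL replicate 2, although the luminal level was 26.7 and 20.8 CPM there, against 383 and 166 in the C1QA gate.

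**Figure D3:**
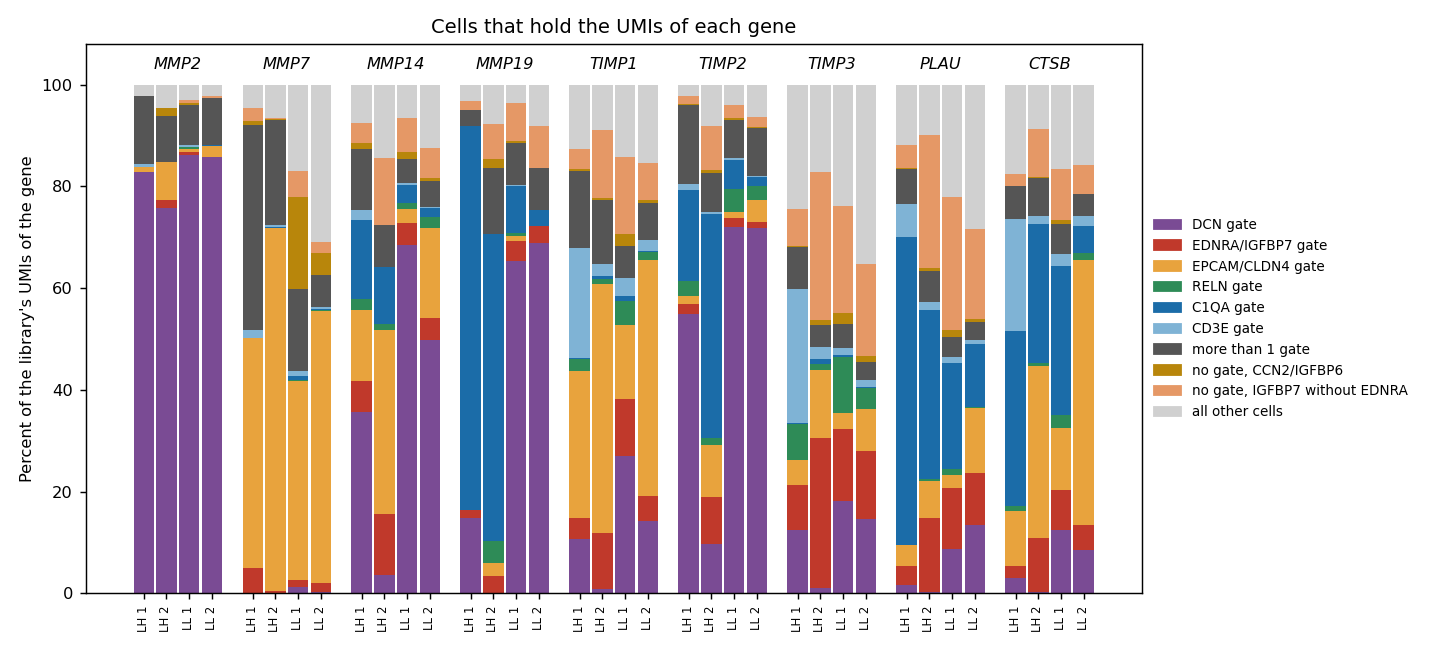
Percent of each gene's UMIs in a library (vertical axis) by the cells that held them, with 4 bars per gene, 1 for each library. The DCN gate fills 75.8% to 86.2% of each MMP2 bar, and most of each MMP19 bar is the C1QA gate in LH and the DCN gate in LL.

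Inhibitor UMIs outnumbered metalloproteinase UMIs in every tested gate and library. The ratio of summed TIMP1, TIMP2 and TIMP3 UMIs to summed MMP2, MMP7, MMP14 and MMP19 UMIs had its lowest medians in luminal (5.68) and fibroblast-like cells (7.66). In luminal cells it was 3.14 and 4.22 for LH against 7.15 and 13.2 for LL, and in DCN cells 8.19 and 10.51 for LH against 6.33 and 7.13 for LL. The luminal ratio was the lowest of the 6 gates in both LH libraries and the DCN ratio in both LL libraries. Macrophage-like cells had 7.01, 11.7, 17.2 and 22.3, from 78, 109, 84 and 12 metalloproteinase UMIs. In the 18 cells with IDO1 and IGFBP6, which were not tested, inhibitor and metalloproteinase UMIs numbered 30 and 25, 22 and 0, 26 and 9, and 4 and 12 in the 4 libraries, so metalloproteinase UMIs were the more numerous in the single cell of LL replicate 2. The highest median was that of RELN cells, at 197, from only 4, 8, 31 and 14 metalloproteinase UMIs. EDNRA/IGFBP7 cells had 11.2 in LH replicate 1, where 88.4% of the metalloproteinase UMIs of that gate were MMP7, and 190, 113 and 129 in the others. These are ratios of captured transcripts, and capture may differ between genes, so they say nothing of the amounts of active enzyme.

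The make-up of each ratio differed by gate. In luminal cells 87.2% to 96.8% of the metalloproteinase UMIs were MMP7 and 60.1% to 82.2% of the inhibitor UMIs TIMP1. In DCN cells MMP2 gave 79.5% to 87.2% of the metalloproteinase UMIs, and TIMP2 (31.2% to 42.5%) and TIMP3 (33.3% to 45.9%) most of the inhibitor UMIs. In macrophage-like cells the inhibitor was mostly TIMP2 (56.0% to 92.9%), set against MMP14 (25.7% to 58.3%) and MMP19 (16.7% to 64.2%). In EDNRA/IGFBP7 and RELN cells TIMP3 gave 68.5% to 84.4% and 65.4% to 79.7% of the inhibitor UMIs.

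**Figure D4:**
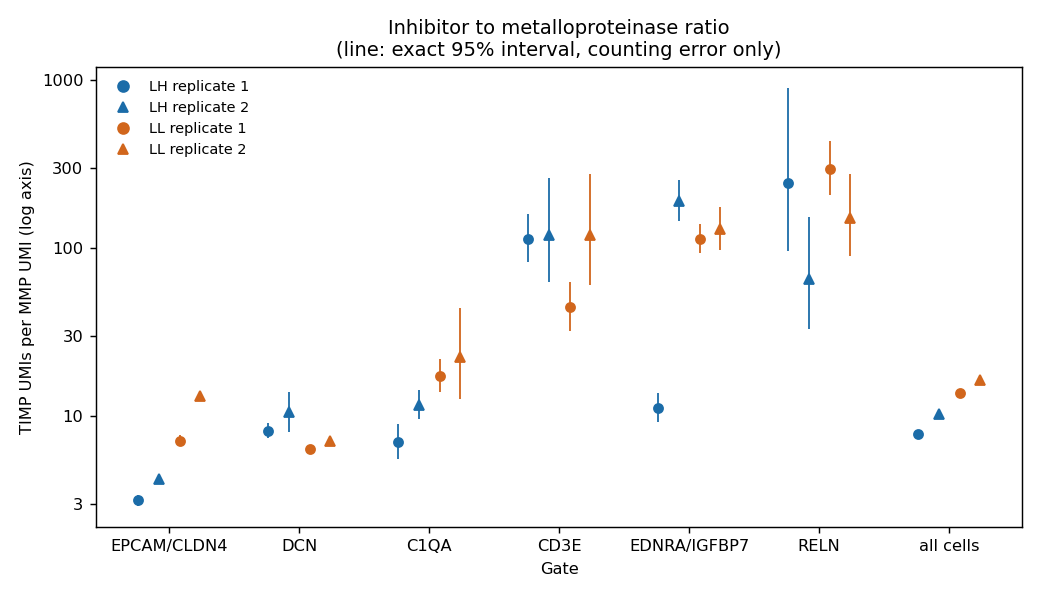
TIMP UMIs per MMP UMI (log axis) in 6 gates and in all cells of a library, with a point for each library and exact 95% intervals that cover counting error only. Luminal and macrophage-like cells and the whole libraries have higher ratios in LL than in LH, and DCN cells lower ones.

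Between the stages, the luminal ratio was higher in LL by 1.41 on the log2 scale (pooled SD 0.49), the C1QA ratio by 1.12 (pooled SD 0.41) and the DCN ratio lower by a log2 difference of -0.46 (pooled SD 0.20), each without overlap of the stages. With 2 ewes in each group the exact two-sided permutation test cannot go below p = 0.333, the value it gave for these 3 gates. In all cells of a library the ratio was 7.77 and 10.3 for LH against 13.8 and 16.3 for LL, again without overlap (log2 difference 0.74, exact permutation p = 0.333). The stages overlapped in the RELN (0.73, exact permutation p = 0.667), CD3E (-0.68, p = 0.667) and EDNRA/IGFBP7 gates (1.39, p = 1). The EDNRA/IGFBP7 difference became -0.65 without LH replicate 1, and the RELN difference -0.22 without LH replicate 2. Within DCN cells TIMP2 outnumbered MMP2 by 4.24 and 4.00 in LH against 3.15 and 3.47 in LL, also without overlap (log2 difference -0.32, exact permutation p = 0.333). Within macrophage-like cells TIMP2 outnumbered MMP14 by 16.4 and 32.3 in LH against 24.5 and 21.4 in LL, which overlapped (log2 difference -0.0064). TIMP2 and MMP2 UMIs were found together in 18.4% to 25.3% of the DCN cells thinned to 1000 UMIs, close to the 18.2% to 24.0% that independent detection would give.

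No member was called between LL and LH in any gate by edgeR, and luminal MMP7 was called by DESeq2. Of 40 member-gate pairs that could be tested, 0 passed the edgeR quasi-likelihood test after Benjamini-Hochberg adjustment. At an unadjusted p under 0.05 there were 9 by edgeR (22.5%, against 6.52% of the 56843 gene-gate pairs of all genes) and 7 by DESeq2, of which 1 passed in DESeq2 after adjustment. DESeq2 gave an unadjusted p under 0.05 to 152 of all 9864 genes in DCN, 377 of 9992 in EDNRA/IGFBP7 and 1258 of 13368 in the luminal gate. In RELN, C1QA and CD3E these were 165 of 5809, 206 of 8536 and 277 of 9274. Over all genes the same edgeR test called 0.0101% in DCN, 0.03% in EDNRA/IGFBP7, 0.015% in the luminal gate, 0.0108% in CD3E and 0% in RELN and C1QA, shares that are also near 0. The 40 pairs were 8 members in DCN, 7 in EDNRA/IGFBP7, 8 in the luminal gate, 4 in RELN, 7 in C1QA and 6 in CD3E.

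The pair called by DESeq2 was luminal MMP7. Its levels of 165 and 98.2 for LH lay above those of 55.0 and 20.6 in LL, a log2 difference of -1.79 ± 0.48 in edgeR (unadjusted p = 0.01215, adjusted p = 0.409) and an adjusted p of 0.00668 in DESeq2. With 1 library left out the edgeR difference lay between -2.54 (without LL replicate 1) and -1.28 (without LL replicate 2). DESeq2 also called far more luminal genes than edgeR, 280 against 2 of 13368. TIMP1 in luminal cells was higher in both LH libraries as well (441 and 305 against 257 and 217, log2 difference -0.62 ± 0.22, edgeR adjusted p = 0.470). MMP2 (2.35 ± 0.86) and TIMP2 (0.80 ± 0.29) in luminal cells were higher in both LL libraries, with edgeR adjusted p of 0.478 and 0.471. They rest on 4 and 5 against 31 and 41 UMIs for MMP2, and on 40 and 211 against 201 and 361 for TIMP2. Luminal SERPINF1, the fibroblast gene, had 3 and 6 against 39 and 31 UMIs, and DCN-gated cells numbered 229 and 35 against 2044 and 1199. The part of fibroblast RNA in these luminal values was not tested. MMP7 in cells of no gate went the other way from luminal MMP7, at 22.3 and 31.9 in LH against 36.9 and 47.7 in LL. Cells in more than 1 gate (312 and 143 against 85.2 and 23.7) and all cells (76.6 and 78.0 against 33.2 and 23.8) went the luminal way. No stage test was run on these sets.

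Of the other pathway genes, edgeR called 0 between the stages in any gate, with 4 of 21 pairs at an unadjusted p under 0.05 (6.52% over all genes). DESeq2 called 1 of the 21 pairs, with 5 at an unadjusted p under 0.05. Its counts over all genes are given above. The called gene was SERPINB1, an inhibitor of neutrophil serine proteases, in luminal cells (edgeR log2 difference -1.52 ± 0.18, adjusted p = 0.239; DESeq2 adjusted p = 8.99e-09).

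MMP19 in macrophage-like cells was higher in both LH libraries (41.1 and 41.1 against 15.6 and 4.19), with a log2 difference of -1.83 ± 0.55 (edgeR, unadjusted p = 0.013, adjusted p = 0.893). Without LL replicate 1 the difference was -3.49 (adjusted p = 0.757), and without LL replicate 2 it was -1.35. Without the filter on low counts the adjusted p was 0.0236, in a fit that called 123 of 14989 genes in this gate, against 0 of 8536 with the filter. In DCN cells MMP19 was higher in both LL libraries (1.20 ± 0.72, edgeR adjusted p = 0.949). A test of whether the stage difference depends on the gate gave an unadjusted p of 0.00645 and an adjusted p of 0.660 for MMP19 (edgeR). In that test 0 of 9 members were called, 2 had an unadjusted p under 0.05 (MMP19 and MMP2) and DESeq2 called 0 of the 8 members it gave an adjusted p, with 0.00805% of 12419 genes called by edgeR. By edgeR 824 of these 12419 genes had an unadjusted p under 0.05.

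TIMP3 in EDNRA/IGFBP7 cells was at 961 and 1875 for LH against 2369 and 2908 for LL, without overlap (log2 difference 0.90 ± 0.32, edgeR adjusted p = 0.783). PLAU in the same gate was at 31.4 and 83.4 against 100.7 and 121 (0.88 ± 0.41, adjusted p = 0.803). Without LH replicate 2, 3 pairs were called, all in this gate: TIMP3 (1.44, adjusted p = 0.00367), PLAU (1.79, adjusted p = 0.00969) and MMP7 (-3.50, adjusted p = 0.00217). That fit left LH replicate 1 as the only LH library, with its spread taken from LL. It called 453 of all 9697 genes tested in this gate, against 3 of 9992 with every library. In the RELN gate TIMP1 was at 818 and 806 in LH against 336 and 452 in LL (-0.99 ± 0.31, edgeR adjusted p = 0.960), and CTSB at 55.9 and 67.6 against 27.4 and 34.7 (-0.94 ± 0.36, adjusted p = 0.960). These LH values rest on 42 and 68 cells. The blood endothelial genes and the EDNRA/IGFBP7 markers in the RELN gate also differed between libraries, as given above, and their part was not tested.

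In fibroblast-like cells no stage difference of a member passed the test. MMP2 differed by a log2 value of 0.17 ± 0.24, MMP14 by -0.0015 ± 0.34, TIMP2 by -0.17 ± 0.26 and TIMP3 by -0.40 ± 0.38, with edgeR adjusted p of 0.963 or more. TIMP1 had the lowest p of the inhibitors there, with 899 and 1554 in LH against 853 and 727 in LL (-0.62 ± 0.29, unadjusted p = 0.0676, adjusted p = 0.923). PLAU had the lowest p and the largest difference of the members in this gate, with 11.1 and 63.4 in LH against 38.5 and 81.0 in LL, which overlapped (1.60 ± 0.69, unadjusted p = 0.0516, adjusted p = 0.923). TIMP2 in T cell-like cells had a log2 difference of 1.52 ± 0.58 (adjusted p = 0.878) from 34 and 7 UMIs in LH and 47 and 11 in LL. PLAU and CTSB in macrophage-like cells differed by 0.0064 ± 0.31 and -0.05 ± 0.61, with edgeR adjusted p of 0.998 and 0.993.

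**Figure D5:**
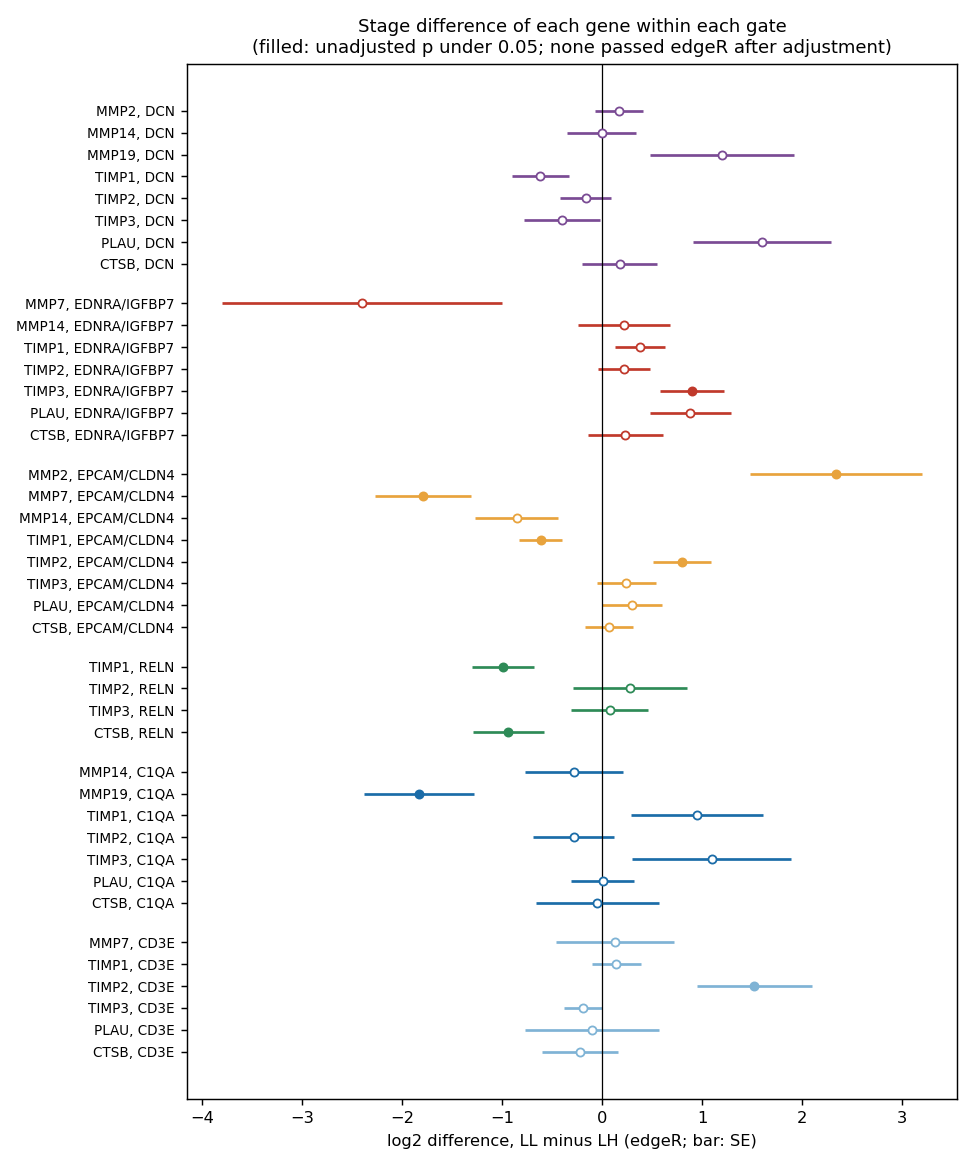
Stage difference (log2, LL minus LH, with its SE) of each member that could be tested in each of 6 gates. Filled points have an unadjusted p under 0.05, and none of the 40 passed the edgeR test after adjustment.

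Some other named genes had patterns close to those of the members over the 24 sums of 6 gates and 4 libraries. Of 433 genes with a symbol and a sufficient level, SERPINF1 was most like MMP2 (Pearson r = 0.99 on log2 levels), and MMP14 and TIMP2 most like each other (0.92). TIMP1 was closest to GHR (0.88), TIMP3 to CPNE1 (0.90), PLAU to CTSB (0.83) and CTSB to C1QA (0.91). The sums of a library share its depth and free RNA, and the correlations are a description.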

How the data were processed

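The deposited files hold UMI counts per gene and barcode, made by the authors with Cell Ranger (version 7.2.0 per the file headers, 5.0.1 per the submitters' processing notes, which also name STAR and Seurat 3.2.0). The build and annotation are not given in the sources used here. None of the identifiers matched the reference table (0), so no coordinates or sequences are given. Groups and replicate numbers came from the titles, and the series' text gives 2 ewes per stage. The members, gene lists and gates were chosen with earlier results of these data known.

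Barcodes over 20% mitochondrial UMIs (13 genes) and doublet calls (Scrublet in scanpy 1.11.5; 279, 438, 557 and 543 cells) were left out. In LH replicate 1 the automatic threshold called none, so the top scores at 0.8% per 1000 barcodes were taken, a choice made after seeing the data. This left 5574, 8923, 12082 and 10490 cells, of which 3311, 4678, 5692 and 5354 passed exactly 1 gate. Gates needed DCN of 3 UMIs and 10 per 10000; EDNRA 1 with IGFBP7 3; EPCAM plus CLDN4 2; RELN 2; C1QA 2; CD3E 1; IDO1 1 with IGFBP6 1.

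Counts were summed per library and gate (at least 10 cells) and tested with edgeR 4.0.16 in R 4.3.3 (TMM, filterByExpr with a minimum count of 10, threshold 0.05 over all genes); code was tested on simulated data. DESeq2 1.42.0 was an alternative. Named genes were the 9 members, pathway genes past a test, and the 3 most alike genes per member, of which the closest is given for 7 members (log2 of CPM plus 5, mean of at least 20 CPM in a gate). Shares have exact Clopper-Pearson 95% intervals, for counting error only, and a share of 0 is given with the limit of 3 counts; some named genes are not reported here; UMIs of a library limit precision as given above.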

Additional observations from a re-analysis of the deposited data

Results flagged for a closer look

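The stage difference of the TIMP to MMP ratio had opposite signs in different gates, with no overlap of the stages in either. It was higher in LL in luminal cells (log2 difference 1.41) and lower in LL in DCN cells (-0.46), a gap of 1.88 between the gates (exact permutation p = 0.333, the smallest that 2 against 2 ewes can give). In macrophage-like cells it was higher in LL (1.12), a gap of 1.58 from DCN cells (exact permutation p = 0.333). The macrophage-like value of LL replicate 2 rests on 12 metalloproteinase UMIs, and the TIMP2 to MMP14 ratio of these cells overlapped between the stages (log2 difference -0.0064). With 2 against 2 ewes the difference between the gates could not be shown by the permutation test.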

How the results depend on the processing

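Of 36 calls between gates, 26 were kept in all 13 other settings run (15 of 18 higher, 11 of 18 lower), and the count ranged from 31 to 39 (32 to 36 when a library was left out). The stage count of 0 called pairs became 1 with DESeq2, 2 without the low-count filter (MMP7 in EDNRA/IGFBP7 and MMP19 in C1QA, in fits that called 237 and 123 of all genes there, against 3 and 0) and 0 to 3 when a library was left out. The numbers did not pair the ewes: deviations of equal replicate numbers correlated between -0.21 and 0.03 over the gates. With a replicate block 0 pairs were called, and over all genes 58 in DCN, 2 in C1QA, 1 in the luminal gate and 0 in the others, against 1, 0, 2 and (EDNRA/IGFBP7, RELN, CD3E) 3, 0 and 1 without it. DESeq2 called 280 (luminal), 37 (EDNRA/IGFBP7), 19 (CD3E), 11 (C1QA), 6 (DCN) and 1 (RELN) of all genes between the stages, and 110 against 1 for the stage difference between gates.

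Stage differences near 0 changed sign. MMP14 in DCN, -0.0015 as reported, was 0.085 with cells of several gates counted in each, 0.045 without the filter, 0.052 with at least 50 cells, 0.054 with the replicate block and -0.46 to 0.33 with a library left out. PLAU in C1QA was -0.057 with stricter gates, -0.035 with cells of at least 1000 UMIs, -0.050 with doublet calls kept, -0.15 with several gates, -0.035 without the filter and -0.12 to 0.11 with a library left out. CTSB in C1QA was 0.083 with several gates and -1.47 to 0.63 with a library left out. TIMP3 in DCN was 0.24 with at least 50 cells, and with a library left out -0.83 to 0.24, -0.24 to 0.64 in RELN, and TIMP2 in C1QA -0.89 to 0.12.

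The ratio difference with a library left out was -0.65 to 3.44 (EDNRA/IGFBP7), -0.22 to 1.68 (RELN), -1.39 to 0.035 (CD3E, and 0.77 with several gates), 0.97 to 1.85 (luminal), 0.75 to 1.48 (C1QA) and -0.64 to -0.28 (DCN). Thinning to 1000 UMIs lowered the mean share of cells with a UMI to 32.1% for MMP2, 7.56% for MMP14, 50.7% for TIMP1 and 66.5% for TIMP2 (DCN), 4.95% for MMP7 (luminal), 81.9% for TIMP3 (RELN), 27.8% for PLAU and 18.2% for CTSB (C1QA), fewer UMIs per cell by construction. Where no cause is named, the cause was not tested.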
